A study of Homo sapiens with 12 samples.

Results

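CDKN1A, GADD45A, SFN, PLK3 and AEN are textbook target genes of the transcription factor p53, and the first 4 are known for roles in slowing or stopping cell division. They were picked by gene symbol, with earlier results of these data known, and all 5 were found among the 3699 genes of the deposited table. Levels were read in RNA from SW480, an established human colorectal adenocarcinoma line that carries mutant p53. The 12 libraries fall into 4 groups of 3. GLY_PUE cells received GLY and PUE together for 12 h, GLY cells received GLY, PUE cells received PUE for 12 h, and the last group was untreated. The GLY labels read 12, 13 and 14 h for replicates 1, 2 and 3, whereas the treatment protocol states 12 h for all. The series title names Gegen Qinlian Decoction, a herbal mixture, but the labels do not spell out GLY or PUE, and the abbreviations are kept. All groups were first grown in serum-containing IMDM medium, and the cell line label reads SW480 throughout. The description labels, however, count the name of the line upward from sample to sample, and this was not resolved. Nothing says that replicates were separate cultures, so each p-value reflects only how far these libraries vary, and that variation may be technical.

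In cells with working p53, damaged DNA stabilises the protein, which binds its target genes and raises their transcription. CDKN1A encodes p21, which inhibits cyclin-dependent kinases and so holds cells before DNA replication. GADD45A encodes a small protein that binds the mitotic kinase complex and the replication clamp and that also responds to several kinds of stress. SFN encodes 14-3-3 sigma, an epithelial protein that keeps mitotic kinases in the cytoplasm. PLK3 encodes a stress-responsive polo-like kinase. AEN encodes a nuclear exonuclease linked to apoptosis and so stands apart from the other members by its role. Each of these genes can also be raised by other transcription factors, among them those of the stress responses.

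The promoters are shown because all 5 genes were higher with GLY. They are RefSeq sequences on GRCh38.p14, from 250 bases before to 50 bases after the annotated start, and the table held 4 of the 5 members. All lie on the forward strand, for CDKN1A at chr6:36678464-36678763, for SFN at chr1:26862899-26863198, for PLK3 at chr1:44800127-44800426 and for AEN at chr15:88621090-88621389. Capitals mark matches on either strand to 5 searched motifs, namely the GC box (GGGCGG), the CCAAT box (CCAAT), the AP-1 element (TGANTCA), the cAMP response element and the p53 half-site consensus.
CDKN1A: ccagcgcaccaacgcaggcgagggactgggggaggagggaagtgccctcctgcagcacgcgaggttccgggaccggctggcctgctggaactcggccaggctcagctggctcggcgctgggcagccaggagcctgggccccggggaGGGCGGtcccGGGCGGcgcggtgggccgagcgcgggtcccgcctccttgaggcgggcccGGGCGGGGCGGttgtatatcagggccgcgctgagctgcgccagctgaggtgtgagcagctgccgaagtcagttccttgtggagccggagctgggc
SFN: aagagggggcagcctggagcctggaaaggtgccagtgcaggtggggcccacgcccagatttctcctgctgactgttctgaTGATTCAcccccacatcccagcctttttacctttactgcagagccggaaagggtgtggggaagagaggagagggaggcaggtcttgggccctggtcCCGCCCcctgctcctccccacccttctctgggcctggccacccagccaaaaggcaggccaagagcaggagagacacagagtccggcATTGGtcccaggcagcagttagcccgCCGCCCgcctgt
PLK3: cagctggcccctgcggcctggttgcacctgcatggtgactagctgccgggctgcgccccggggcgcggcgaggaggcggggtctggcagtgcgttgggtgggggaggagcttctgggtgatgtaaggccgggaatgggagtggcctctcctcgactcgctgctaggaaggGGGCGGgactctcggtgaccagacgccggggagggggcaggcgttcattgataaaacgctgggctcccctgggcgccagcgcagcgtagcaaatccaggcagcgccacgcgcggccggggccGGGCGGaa
AEN: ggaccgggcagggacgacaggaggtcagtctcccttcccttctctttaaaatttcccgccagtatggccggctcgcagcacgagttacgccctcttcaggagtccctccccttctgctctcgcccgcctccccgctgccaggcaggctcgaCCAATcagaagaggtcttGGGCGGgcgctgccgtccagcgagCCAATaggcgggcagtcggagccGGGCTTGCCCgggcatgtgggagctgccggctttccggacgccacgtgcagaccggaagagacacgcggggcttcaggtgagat

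All 4 promoters held a GC box, which 45% of 35116 RefSeq promoters of this length also hold. CDKN1A had 4 of them, at −104, −94, −45 and −40 from the start, the last 2 overlapping. SFN and PLK3 had 2 each and AEN had 1. The CCAAT box was found in SFN and AEN, and in 34.6% of all promoters. AEN held the only p53 half-site of the 4, at −34, a motif present in 6.63% of all promoters. SFN held the only match to the AP-1 pattern, tgattca at −170, where the letters match on both strands. This pattern allows any base at its centre, and 7.71% of all promoters hold a match to it. The cAMP response element was in none of the 4, and in 1.85% of all promoters. GC content was 74.3% for CDKN1A, 63.7% for SFN, 71% for PLK3 and 66% for AEN, against a median of 58.7% over all promoters. These matches describe letters in a short window and show no binding. Sites outside the window were not searched, so a gene without a match in it may hold one elsewhere.

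The table is a selected list. Every gene in it has an authors' log2 ratio of at least 1 in size and an authors' q-value of at most 0.001 in some comparison, so the members' presence is part of that selection. It holds 13.843% to 15.364% of the reads of each library, whose recovered totals ran from 19.681 to 21.36 M reads. Of the 8 colon epithelial markers checked, VIL1 and CDX2 were in the table, at a summed 4.98 to 5.69 FPKM in GLY_PUE, 4.16 to 7.29 FPKM in GLY, 25.53 to 33.17 FPKM in PUE and 24.95 to 31.86 FPKM in untreated libraries. Of 6 leukocyte markers CD14 and CD68 were listed. CD14 averaged 0.09 FPKM in GLY_PUE, 0.0733 FPKM in GLY and 0.587 FPKM in untreated cells, while CD68 averaged 10.9, 11.9 and 2.64 FPKM in the same order. Of 6 fibroblast markers only PDGFRB was listed. It stood at 0.31 to 0.66 FPKM in GLY_PUE, 0.29 to 0.62 FPKM in GLY, 0.12 to 0.16 FPKM in PUE and 0.15 to 0.18 FPKM in untreated libraries. It rose with GLY_PUE (log2 fold change 1.48, edgeR adjusted p = 0.00584) and with GLY (1.38, edgeR adjusted p = 0.00756). None of 4 endothelial markers was listed. No listed marker was at 0 in any library, and their part in the results was not tested.

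**Figure D1:**
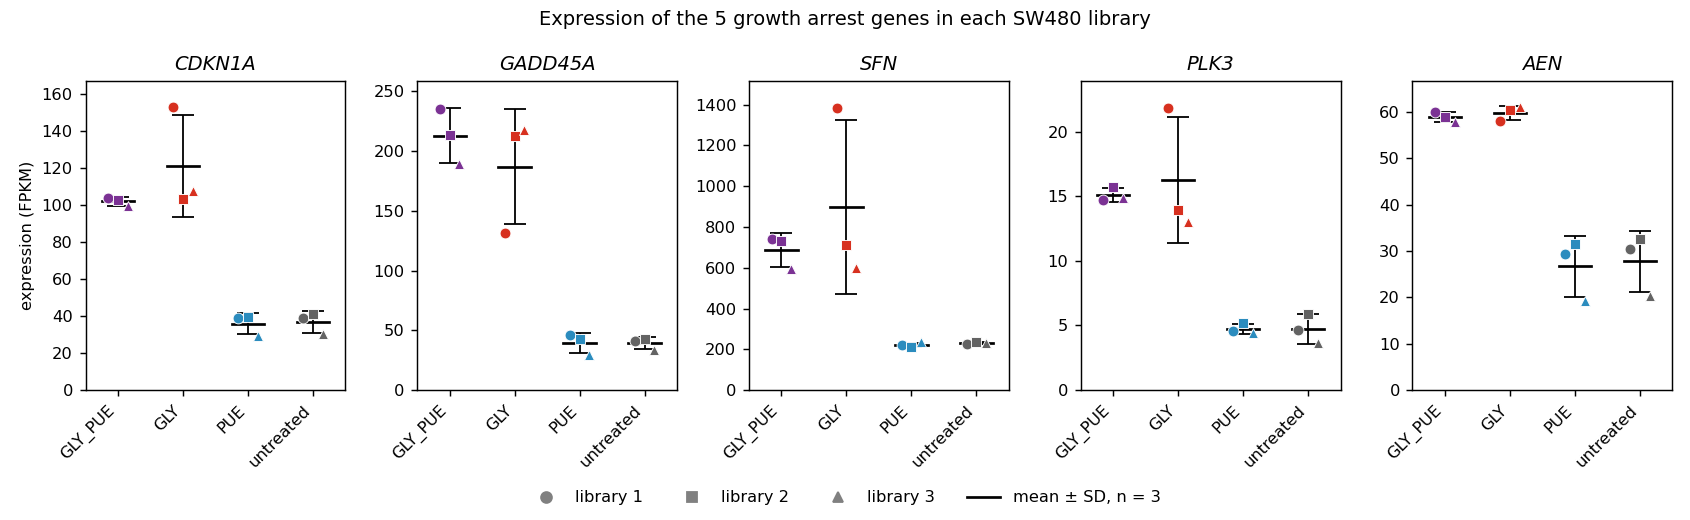
Expression (FPKM, linear axis from 0) of each gene by group, with 1 symbol per library and black bars for the mean ± SD of 3 libraries. In every panel the 6 libraries with GLY lie above the 6 without it, and GLY library 1 lies apart from GLY libraries 2 and 3 for CDKN1A, GADD45A, SFN and PLK3.

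All 5 genes were higher in GLY cells than in untreated cells, by 2.15-fold to 4.80-fold, and also in GLY_PUE cells, by 2.12-fold to 5.47-fold. With PUE alone, the libraries overlapped the untreated ones for all 5. In FPKM, a level per length of transcript, the order SFN, GADD45A, CDKN1A, AEN, PLK3 was the same in all 4 group means. In bulk RNA, a change in the number of cells that express a gene and a change in RNA per cell cannot be told apart.

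CDKN1A, which encodes p21, stood at 103.66, 102.45 and 99.25 FPKM in GLY_PUE libraries, at 152.7, 103.07 and 107.29 FPKM in GLY libraries, at 39.05, 39.34 and 29.23 FPKM in PUE libraries and at 38.87, 41.17 and 30.24 FPKM in untreated libraries. Both groups with GLY lie above both groups without it and do not overlap them, and the highest value is GLY replicate 1. The GLY mean was 121.0 ± 27.5 FPKM, against 36.76 ± 5.76 FPKM in untreated cells (SD, n = 3 each). The log2 fold change was 1.72 (SE 0.23, edgeR quasi-likelihood test, adjusted p = 0.000113). GLY_PUE cells averaged 101.8 ± 2.28 FPKM, and their log2 fold change against untreated cells was 1.47 (SE 0.23, edgeR adjusted p = 0.000293).

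GADD45A, the stress sensor of the set, had the largest log2 fold change of the 5 with GLY_PUE and with GLY. It stood at 235.49, 213.48 and 189.35 FPKM in GLY_PUE libraries, at 131.59, 212.17 and 217.34 FPKM in GLY libraries, at 45.82, 42.78 and 29.4 FPKM in PUE libraries and at 41.38, 42.8 and 33.34 FPKM in untreated libraries. Here GLY replicate 1 is the lowest of the 6 libraries with GLY, yet it lies above every library without GLY. The log2 fold change was 2.26 in GLY against untreated cells (SE 0.26, edgeR adjusted p = 5.28e-05) and 2.45 in GLY_PUE against untreated cells (SE 0.27, edgeR adjusted p = 3.77e-05). The order with GLY turned without GLY replicate 3, where GADD45A was at 2.14 and SFN at 2.19. Without GLY replicate 1, the library set apart for both genes, GADD45A was at 2.46 and SFN at 1.51.

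SFN, the epithelial 14-3-3 protein, was the most abundant of the 5 per length. It stood at 741.35, 730.39 and 593.51 FPKM in GLY_PUE libraries, at 1385.48, 709.64 and 598.43 FPKM in GLY libraries, at 221.29, 212.62 and 233.63 FPKM in PUE libraries and at 225.61, 234.79 and 228.45 FPKM in untreated libraries. The groups without GLY are tight, and the spread in GLY comes with replicate 1. The log2 fold change was 1.97 in GLY against untreated cells (SE 0.28, edgeR adjusted p = 0.000176) and 1.58 in GLY_PUE against untreated cells (SE 0.28, edgeR adjusted p = 0.000601). Without GLY replicate 1 the GLY change was 1.51.

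PLK3, the polo-like kinase, was the least abundant. It stood at 14.74, 15.68 and 14.89 FPKM in GLY_PUE libraries, at 21.87, 13.92 and 13.03 FPKM in GLY libraries, at 4.59, 5.16 and 4.43 FPKM in PUE libraries and at 4.62, 5.9 and 3.65 FPKM in untreated libraries. Again the groups with and without GLY do not overlap, and GLY replicate 1 is the highest. The log2 fold change was 1.79 in GLY against untreated cells (SE 0.26, edgeR adjusted p = 0.000202) and 1.68 in GLY_PUE against untreated cells (SE 0.26, edgeR adjusted p = 0.000295).

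AEN, the exonuclease, had the smallest change. It stood at 59.99, 58.9 and 57.78 FPKM in GLY_PUE libraries, at 58.1, 60.49 and 61.01 FPKM in GLY libraries, at 29.36, 31.59 and 19.21 FPKM in PUE libraries and at 30.44, 32.6 and 20.28 FPKM in untreated libraries. The 6 libraries with GLY lie close together, GLY replicate 1 included, while replicate 3 of each group without GLY lies lower than the other libraries of its group. The log2 fold change was 1.10 in GLY against untreated cells (SE 0.24, edgeR adjusted p = 0.00186) and 1.08 in GLY_PUE against untreated cells (SE 0.24, edgeR adjusted p = 0.00219).

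All 5 genes were thus called higher in GLY against untreated cells, where 19.7% of the 3429 genes tested were called higher and 64.6% lower at an adjusted p under 0.05. In GLY_PUE against untreated cells, 5 of 5 were called higher, where 20.2% of genes were called higher and 57.1% lower. The values of all 5 did not overlap between groups in either comparison, as was so for 17.7% of genes in the upward direction with GLY and 21.8% with GLY_PUE. The median log2 fold change of the members was 1.79 with GLY and 1.58 with GLY_PUE, against −1.15 and −1.03 over all genes tested. Ranked from the largest increase with GLY, GADD45A was 126th, SFN 174th, PLK3 221st, CDKN1A 244th and AEN 550th of 3429. The members were chosen with earlier results of these data known, so these shares and ranks do not test the set.

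These changes are relative to library totals, and another scaling moves them upward. TMM, which centres the listed genes on no change, raised the log2 fold changes by a median of 1.14 with GLY and 1.01 with GLY_PUE. With it the members ran from 2.23 (AEN) to 3.36 (GADD45A) with GLY and from 2.06 (AEN) to 3.45 (GADD45A) with GLY_PUE, all passing. TMM called 23.7% of genes higher and 10.0% lower with GLY, and 23.8% higher and 11.5% lower with GLY_PUE. The median of the members stood at 2.97 with GLY and 2.59 with GLY_PUE on that scale, against −0.02 over all genes in both.

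**Figure D2:**
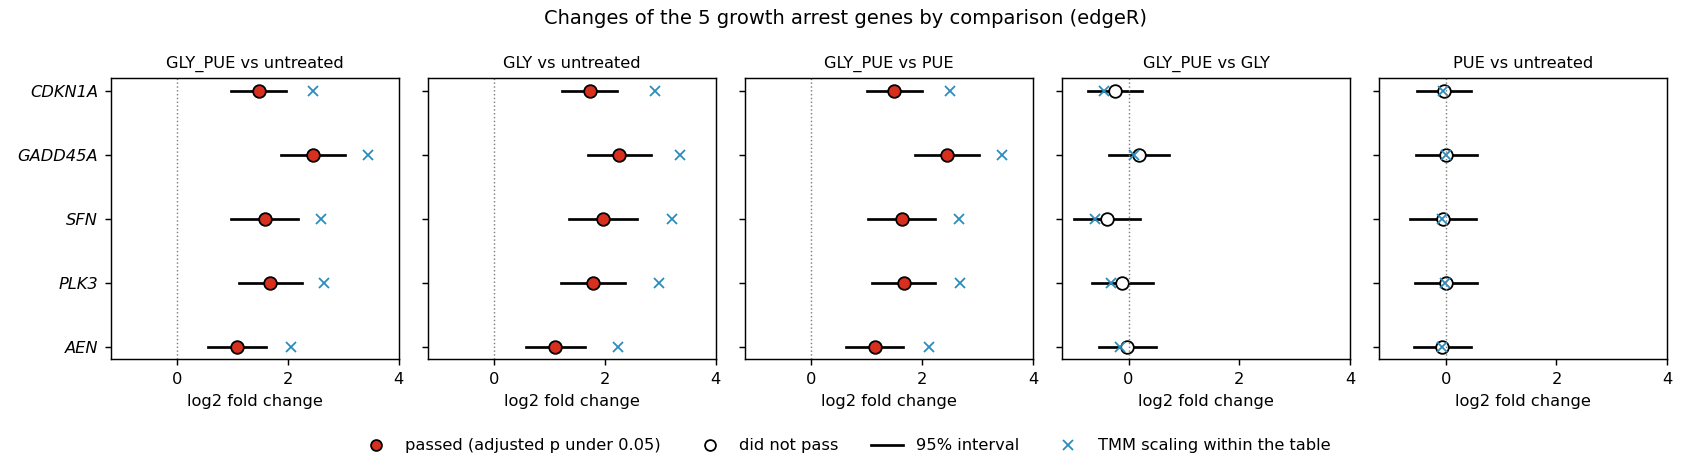
Log2 fold change of each gene (horizontal axis) in 5 comparisons, with 95% intervals from edgeR, filled circles for genes that passed and blue crosses for TMM scaling. The 3 comparisons with and without GLY lie right of 0 for all 5 genes under both scalings, while all intervals for GLY_PUE vs GLY and PUE vs untreated span 0.

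PUE alone was set against untreated cells to see whether it acts without GLY. The log2 fold changes were −0.03 for CDKN1A, with a 95% interval of −0.52 to 0.46, and 0.01 for GADD45A (−0.54 to 0.56). They were −0.05 for SFN (−0.64 to 0.55), 0.00 for PLK3 (−0.56 to 0.56) and −0.06 for AEN (−0.58 to 0.46), each with an edgeR adjusted p of 1.000. Changes beyond these bounds lie outside the intervals, and smaller ones cannot be told from none by this model with 3 libraries a group. The model does not pair libraries by number. Same-numbered log2 ratios of PUE over untreated FPKM were 0.01, −0.07 and −0.05 for CDKN1A and −0.05, −0.05 and −0.08 for AEN. They spread most for PLK3, at −0.01, −0.19 and 0.28. No gene of the 3429 tested was called (0%, edgeR). An unadjusted p under 0.05 was reached by 12 genes with edgeR, 4 with DESeq2 on the same totals and 14 with limma-voom. It was reached by 14 under TMM and 19 with the replicate number as a block. With no change in any gene, a share of 0.05 of the genes would be expected, and all of these counts are far below it. So these tests may be conservative here, and 0 calls do not show that PUE has no effect.

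Adding PUE to GLY was read in GLY_PUE against GLY cells. The log2 difference was −0.25 for CDKN1A (95% interval −0.73 to 0.24), 0.19 for GADD45A (−0.36 to 0.73) and −0.38 for SFN (−0.98 to 0.21). It was −0.11 for PLK3 (−0.66 to 0.44) and −0.02 for AEN (−0.54 to 0.50), and edgeR adjusted p-values ran from 0.959 for CDKN1A, GADD45A and SFN to 0.998 for AEN. The differences rest largely on GLY replicate 1. Without it they were −0.05 for CDKN1A, −0.01 for GADD45A, 0.07 for SFN and 0.16 for PLK3. No gene of the 3429 was called (0%, edgeR). At an unadjusted p under 0.05 were 57 genes by edgeR, 49 by DESeq2 on the same totals and 59 by limma-voom. There were 78 under TMM and 115 with the replicate number as a block. These counts too are below the share of 0.05 expected with no change in any gene.

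The authors' deposited table gives log2 ratios of the same size for GLY_PUE over GLY. Its q-values, however, are very small for CDKN1A, GADD45A and SFN, though not for PLK3 and AEN. In the authors' deposited table CDKN1A has −0.25 with a q-value of 3.07e-48 and GADD45A has 0.19 with a q-value of 1.32e-31. For SFN the authors' deposited table lists −0.38 with a q-value of 0, for PLK3 −0.11 with 0.0168 and for AEN −0.02 with 0.375.

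GLY_PUE against PUE cells shows the change with GLY where PUE is present in both groups. The log2 fold change was 1.5 for CDKN1A (SE 0.23), 2.44 for GADD45A (SE 0.27), 1.63 for SFN (SE 0.28), 1.67 for PLK3 (SE 0.26) and 1.14 for AEN (SE 0.24). The edgeR adjusted p-values ran from 3.67e-05 for GADD45A to 0.00160 for AEN. So 5 of 5 were called higher, where 20.6% of genes were called higher and 57.3% lower, and under TMM 24.2% and 11.7%. The groups did not overlap for any of the 5, as for 21.9% of genes in the upward direction. This comparison shares its GLY_PUE libraries with the one against untreated cells, so it is no separate support.

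Whether the response to GLY differed with PUE was tested as the difference between the change with GLY in the presence of PUE and that in its absence. It was −0.22 for CDKN1A, 0.18 for GADD45A, −0.34 for SFN, −0.11 for PLK3 and 0.04 for AEN on the log2 scale, all with an edgeR adjusted p of 0.999. The widest 95% interval, for SFN, ran from −1.18 to 0.50. No gene was called (0%, edgeR), and 33 reached an unadjusted p under 0.05 with edgeR, 22 with DESeq2 on the same totals and 35 with limma-voom. Under TMM 35 did, and 58 with the replicate number as a block. All are again below a share of 0.05, so these tests may be conservative here.

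The genes differed most among themselves in GLY replicate 1, the only GLY library labelled 12 h. Relative to the mean of GLY replicates 2 and 3, its FPKM was 2.12 times as high for SFN, 1.62 times for PLK3 and 1.45 times for CDKN1A. It was 0.956 times for AEN and 0.613 times for GADD45A. This library also differs by transcript length. Over the 656 shortest listed genes (0.359 to 2.55 kb) its median log2 ratio to the other GLY libraries was 0.17. It was −0.6 over the 655 of middle length (2.56 to 4.20 kb) and −1.19 over the 655 longest (4.21 to 21.2 kb). The members have effective lengths of 1.28 kb (SFN), 1.34 kb (GADD45A), 2.10 kb (CDKN1A), 2.47 kb (PLK3) and 3.10 kb (AEN). AEN is in the middle class and the others are in the shortest. SFN and GADD45A, with nearly the same length, moved in opposite directions in this library. The part of length in the members' values was not tested. Whether the labelled hour or the library sets these values cannot be told apart.

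Ratios of genes within a library do not depend on how libraries are scaled, and were chosen after the values were seen. The ratio of GADD45A to CDKN1A FPKM was 2.27, 2.08 and 1.91 in GLY_PUE libraries, 0.862, 2.06 and 2.03 in GLY libraries, 1.17, 1.09 and 1.01 in PUE libraries and 1.06, 1.04 and 1.10 in untreated libraries. Thus GADD45A stood near 2 times CDKN1A in 5 of the 6 libraries with GLY and near CDKN1A in the 6 without, while GLY replicate 1 was below all of those. The ratio of AEN to CDKN1A lay between 0.569 and 0.587 in the same 5 libraries and was 0.380 in GLY replicate 1. It was 0.657 to 0.803 in PUE and 0.671 to 0.792 in untreated libraries. The ratio of PLK3 to CDKN1A ran from 0.142 to 0.153 in GLY_PUE, from 0.121 to 0.143 in GLY, from 0.118 to 0.152 in PUE and from 0.119 to 0.143 in untreated libraries, so these ranges overlap.

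**Figure D3:**
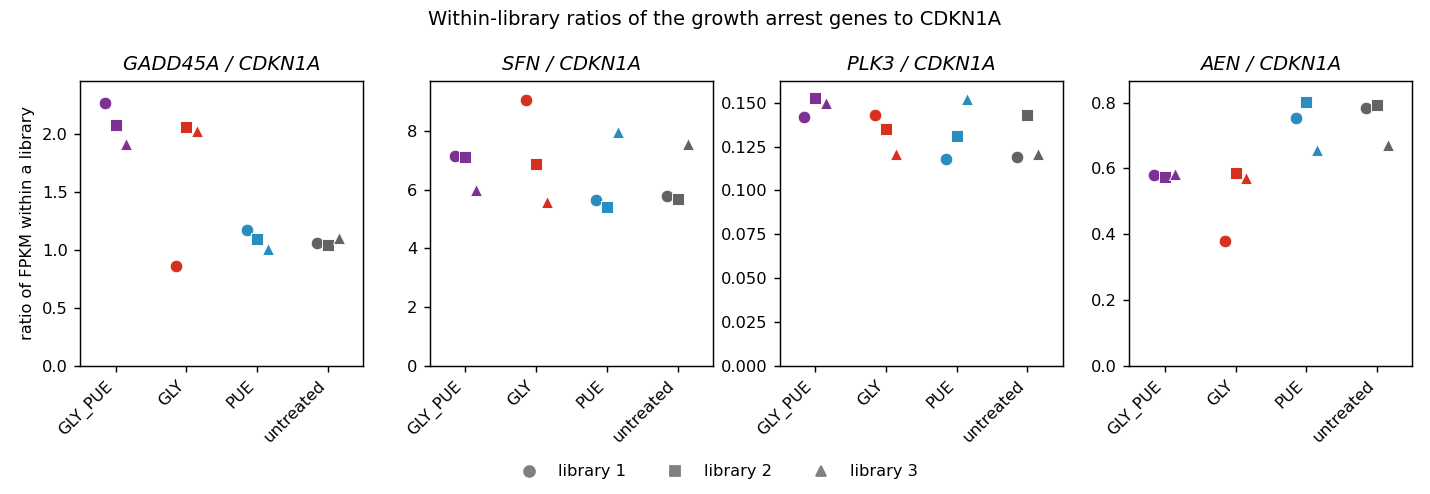
Ratio of the FPKM of GADD45A, SFN, PLK3 and AEN to that of CDKN1A within each library (linear axis from 0), by group, with 1 symbol per library. For GADD45A, 5 of the 6 libraries with GLY lie between 1.91 and 2.27, and GLY library 1 lies at 0.862.

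The libraries numbered 3 formed a further source of spread. In the groups without GLY, replicate 3 was lower than the mean of replicates 1 and 2 for AEN (0.630 times in PUE, 0.643 times in untreated) and for CDKN1A (0.746 times in PUE, 0.756 times in untreated). GADD45A stood at 0.664 times in PUE and 0.792 times in untreated libraries, and SFN at 1.08 and 0.992 times. With GLY present, AEN in replicate 3 was 0.972 times that mean in GLY_PUE and 1.03 times in GLY. Same-numbered ratios of AEN between GLY and untreated libraries were therefore 1.91, 1.86 and 3.01 for numbers 1, 2 and 3. The numbers were not taken to pair the libraries of these groups. With all libraries numbered 3 left out, the log2 fold change of AEN with GLY was 0.91, that of GADD45A was 2.03 and that of SFN was 2.19.

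Of 33 textbook p53 targets counted here, a list chosen with earlier results of these data known, 13 were in the table. Only genes that passed the authors' limits in some comparison are in it, so the counts below do not stand for all 33. With GLY against untreated cells 9 rose and 4 fell, and with GLY_PUE against untreated cells 9 rose, 3 fell and 1 did not pass. Over all genes 19.7% rose and 64.6% fell with GLY, and 20.2% rose and 57.1% fell with GLY_PUE. Of the 9, 5 are the members already described. Apart from the 5 members, the same 4 genes rose in both comparisons. They are the death receptor gene TNFRSF10B, the stress-induced SESN2, the cytokine gene GDF15 and the receptor gene EDA2R. Their log2 fold changes with GLY_PUE and with GLY, each against untreated cells, were 1.22 and 1.06 for TNFRSF10B, 2.26 and 2.32 for SESN2, 1.02 and 1.15 for GDF15, and 2.87 and 2.76 for EDA2R. EDA2R was low, at 2.18 ± 1.04 FPKM in GLY_PUE, 1.92 ± 1.42 FPKM in GLY and 0.303 ± 0.0416 FPKM in untreated cells (SD, n = 3 each). The untreated libraries held only 18, 24 and 15 reads of it. EDA2R with GLY stood at 1.98 without GLY replicate 3, and with all libraries numbered 3 left out it stood at 2.26 with GLY_PUE and 1.84 with GLY, still passing. SESN2 averaged 89.9 ± 7.80 FPKM in GLY_PUE and 93.6 ± 10.0 FPKM in GLY cells, against 18.8 ± 7.23 FPKM in untreated cells (SD, n = 3 each).

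The 4 listed targets that fell with GLY include DNA repair and nucleotide supply genes. DDB2, a damage recognition factor, was at −1.41 with GLY_PUE and −1.22 with GLY, and RRM2B, a ribonucleotide reductase subunit, was at −1.01 and −1.35. CYFIP2, an actin regulator, was at −1.32 and −1.34. TP53INP1, a p53 cofactor, was at −1.10 with GLY and at −0.57 with GLY_PUE, which did not pass (edgeR adjusted p = 0.171). The TP53INP1 call with GLY was lost without untreated replicate 2 (edgeR adjusted p = 0.0559). In GLY replicate 1 TP53INP1 was at 0.22 FPKM, against 0.63 and 0.51 FPKM in replicates 2 and 3. RRM2B was at 1.1 FPKM in that library, against 4.56 and 5.03 FPKM, while DDB2 and CYFIP2 were highest in it among the GLY libraries. The RRM2B call with GLY_PUE was lost without any 1 library of the GLY_PUE or untreated groups, or without PUE replicate 1 or 2 (edgeR adjusted p from 0.0520 to 0.109). None of these 4 passed with TMM in either comparison, and 9 targets still passed as higher. RRM2B stood at 0.01 under TMM with GLY_PUE and TP53INP1 at 0.43. The median log2 fold change of the 8 genes other than the members was 0.22 with GLY_PUE and −0.02 with GLY. With PUE alone 0 of the 13 were called.

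**Figure D4:**
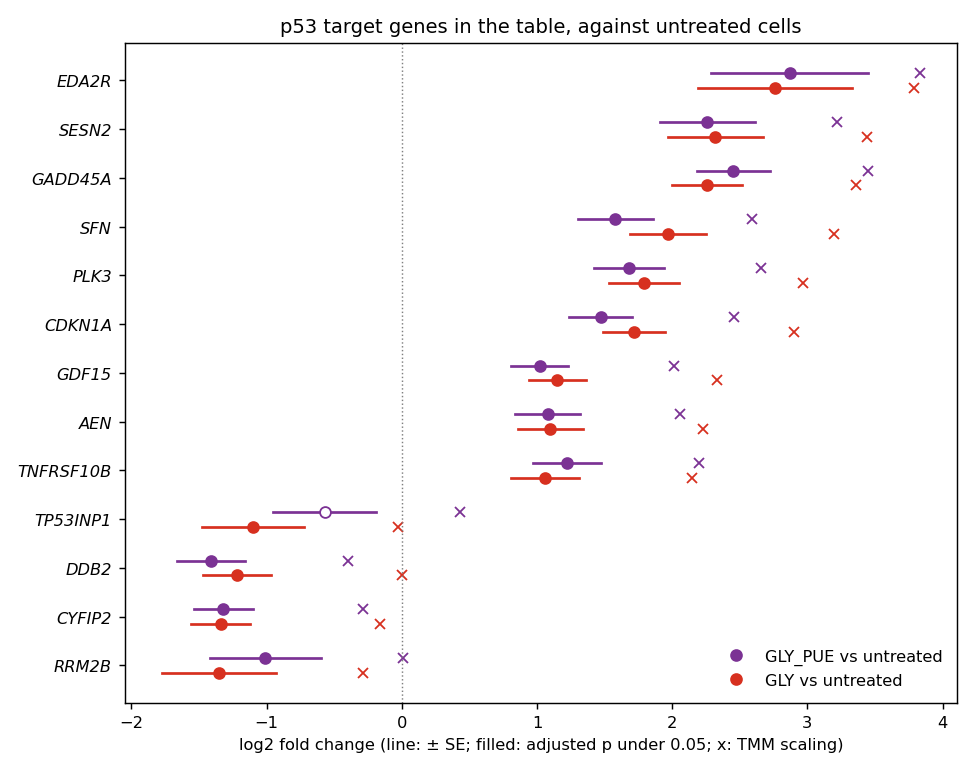
Log2 fold change of the 13 p53 targets counted, against untreated cells, GLY_PUE in purple above GLY in red, with lines for ± SE, filled circles for genes that passed and crosses for TMM scaling. The 9 genes from TNFRSF10B upward lie right of 0 under both scalings, while the lower 4 lie left of 0 by library totals and near 0 for most under TMM.

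Upstream of these targets, 5 of 15 p53 regulators were in the table. MDM4, an inhibitor of p53, rose, with a log2 fold change of 1.02 with GLY_PUE and 0.62 with GLY. Under TMM MDM4 was at 2.01 and 1.74 and passed in both. It averaged 8.54 and 6.46 FPKM, against 2.68 FPKM in untreated cells, a wider gap than in its counts. The MDM4 call with GLY was lost without GLY replicate 2 or 3 or any 1 untreated library (edgeR adjusted p from 0.0522 to 0.0728). TP73, a relative of p53 that can bind the same sites, fell to 0.297 ± 0.0777 FPKM in GLY_PUE and 0.263 ± 0.0569 FPKM in GLY cells, against 3.89 ± 0.400 FPKM in untreated cells (SD, n = 3 each). Its log2 fold change was −3.73 with GLY_PUE and −3.87 with GLY, and −2.72 and −2.70 under TMM. The damage kinase gene CHEK1 was at −0.87 and −1.0, passing by library totals, and took the other sign under TMM at 0.15 and 0.11, where it did not pass. The CHEK1 call with GLY_PUE was lost without GLY_PUE replicate 1 or untreated replicate 3 (edgeR adjusted p of 0.0505 and 0.0566). ATM, another damage kinase, was at −0.59 with GLY_PUE, which did not pass, and at −1.12 with GLY, a call lost without untreated replicate 1 (edgeR adjusted p for ATM = 0.0559). Under TMM ATM was at 0.40 with GLY_PUE and −0.08 with GLY, passing in neither. The coactivator gene EP300, at −0.34 and −1.02, did not pass in either. Without GLY replicate 2 it was at −1.84 and passed (edgeR adjusted p for EP300 = 0.0114), and under TMM it was at 0.65 with GLY_PUE. GLY replicate 1 was the lowest GLY library for EP300, at 1.97 FPKM against 14.42 and 6.71 FPKM in replicates 2 and 3. ATM stood at 0.95 FPKM in it, against 2.97 and 3.56 FPKM. MDM4 and CHEK1 were also lowest in that library, while TP73 was highest.

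Other transcriptional regulators of CDKN1A or GADD45A, activators and repressors alike, were also set side by side, and 9 of 16 were in the table. With GLY_PUE and with GLY 7 rose and 2 fell, where 20.2% and 19.7% of all genes rose and 57.1% and 64.6% fell. Under TMM 7 rose and 0 fell in both, where 23.8% and 23.7% of all genes rose and 11.5% and 10.0% fell. The stress factors ATF3 and DDIT3 had log2 fold changes of 1.95 and 1.74 with GLY_PUE and of 1.96 and 1.98 with GLY. KLF6 was at 2.02 and 1.81, JUN at 1.57 and 1.5, CEBPB at 1.43 and 1.46, and EGR1 at 1.16 and 0.78. The EGR1 call with GLY was lost without GLY replicate 2 or 3 or untreated replicate 1 or 3 (edgeR adjusted p from 0.0586 to 0.120). MYC, a repressor of CDKN1A, was at 1.58 and 1.40. SMAD3, a mediator of TGF-beta signalling, was at −0.98 and −1.07 and took the other sign under TMM at 0.03 and 0.10. BRCA1 was at −0.86 and −1.13, and at 0.14 with GLY_PUE under TMM. The BRCA1 call with GLY_PUE was lost without any 1 of the GLY_PUE replicates or untreated replicate 1 (edgeR adjusted p from 0.0523 to 0.0804). Their part in the levels of the 5 genes was not tested.

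Of the listed relatives of the members, 1 rose and 4 were lower by library totals, where 19.7% of all genes rose and 64.6% fell with GLY, and 20.2% rose and 57.1% fell with GLY_PUE. Among cyclin-dependent kinase inhibitors, CDKN2C, which blocks the kinases of cyclin D, fell, with a log2 fold change of −2.78 with GLY_PUE and −2.99 with GLY, and passed under TMM. CDKN1C, a close relative of p21, was at −1.36 and −1.09, and under TMM at −0.33 and 0.11, where it did not pass. The mitotic kinase PLK1 was at −1.25 with GLY_PUE and −1.09 with GLY, with 0.09 under TMM for GLY. The centriole kinase PLK4 was at −0.83 and −1.14, with 0.19 under TMM for GLY_PUE. Its call with GLY_PUE was lost without any 1 library of the GLY_PUE or untreated groups (edgeR adjusted p for PLK4 from 0.0534 to 0.0995). ISG20, an exonuclease related to AEN, rose by 0.90 with GLY_PUE and by 1.24 with GLY on the log2 scale, and the GLY_PUE call was lost without GLY_PUE replicate 3 or untreated replicate 1 or 3 (edgeR adjusted p for ISG20 from 0.0516 to 0.0746). GADD45A was the only listed gene of its family of 3, and SFN the only one of 7 genes for 14-3-3 proteins.

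Genes that run the cell cycle, which several members restrain, were mostly lower by library totals. The list also holds RB1, RBL1 and RBL2, whose proteins hold back the E2F factors. Of 22 such genes 14 were in the table. With GLY 13 fell and 1, RB1, did not pass, and with GLY_PUE 12 fell and 2 did not pass, set against 64.6% and 57.1% of all genes. PCNA, the replication clamp, averaged 66.7 ± 5.48 FPKM in GLY_PUE and 63.9 ± 19.1 FPKM in GLY cells, against 284 ± 72.1 FPKM in untreated cells (SD, n = 3 each). CDK2, the kinase that p21 inhibits, averaged 13.8 ± 1.04 and 12.4 ± 1.86 FPKM, against 41.2 ± 2.07 FPKM in untreated cells. Under TMM 3 of the 14 passed as lower in each comparison, namely CDK2, PCNA and E2F2, and 3 values took the other sign without passing. The mitotic cyclin gene CCNB2 stood at 0.10 with GLY, and RBL2 and RB1 at 0.16 and 0.22 with GLY_PUE. The RBL2 call with GLY was lost without untreated replicate 3 (edgeR adjusted p = 0.101). CCNE2, a cyclin gene, was at −2.24 with GLY_PUE and −2.41 with GLY. It lost its GLY_PUE call without GLY_PUE replicate 1 or 2 (edgeR adjusted p of 0.0524 and 0.0545). Without GLY replicate 3 it was at −3.22 with GLY. In GLY replicate 1 CCNE2 stood at 0.06 FPKM, against 1.88 and 3.2 FPKM in replicates 2 and 3. RB1 stood at 2.55 FPKM in that library, against 23.77 and 24.46 FPKM, while E2F1 and E2F2 were highest in it among the GLY libraries.

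**Figure D5:**
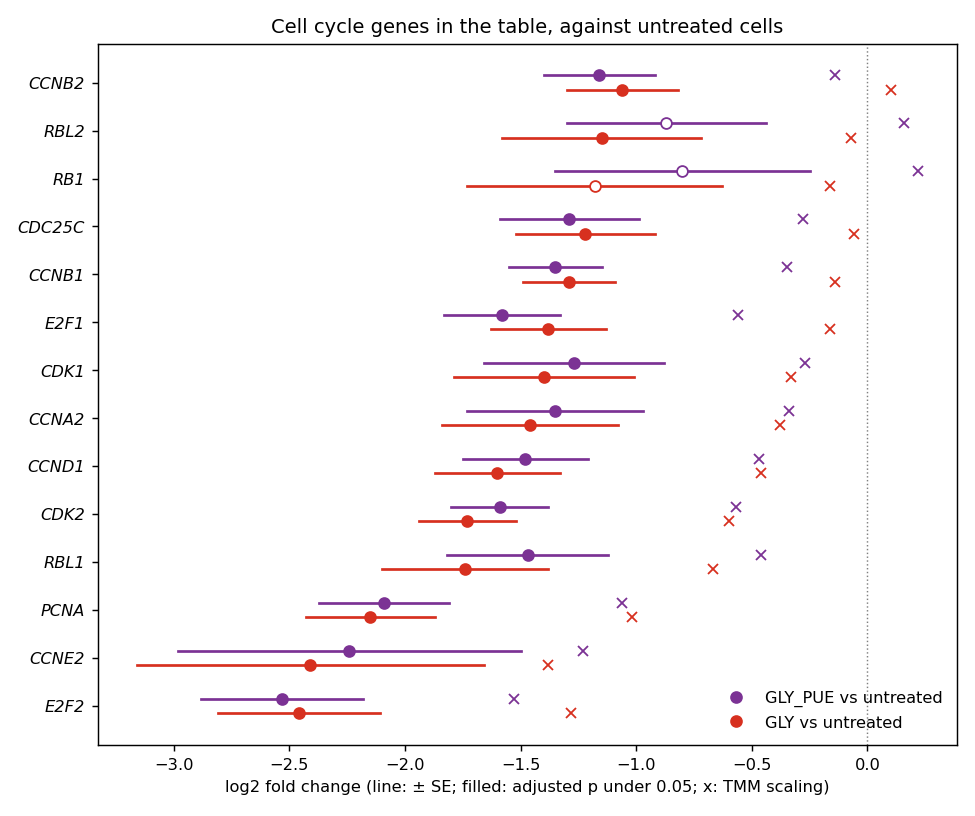
Log2 fold change of the 14 cell cycle genes in the table against untreated cells, GLY_PUE in purple above GLY in red, with lines for ± SE, filled circles for genes that passed and crosses for TMM scaling. All 14 lie left of 0 by library totals, and under TMM only E2F2, PCNA and CDK2 passed as lower.

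The genes most like each member over the 12 libraries were found among 2327 genes by the smallest root-mean-square difference in log2 CPM, after centring on the untreated mean. CDKN1A was nearest to STK40 (0.08), CAMTA2 (0.11) and HPCAL1 (0.12). STK40 ranged from 66.35 to 88.43 FPKM in libraries with GLY and from 18.67 to 26.87 FPKM in those without. GADD45A was nearest to CD55 (0.14), which encodes a complement regulator, and FHL2 (0.27) was also among its nearest 3. SFN was nearest to the metallothionein genes MT2A (0.19) and MT1X (0.22) and to SH3TC1 (0.22). MT2A and MT1X have near-identical relatives, so their counts are uncertain. PLK3 was nearest to CAMTA2 (0.10), MT2A (0.15) and LHX5 (0.15), and AEN to FAM214B (0.09), MEAK7 (0.10) and P4HA2 (0.10).

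Among themselves, the members were not all alike by this measure. CDKN1A and PLK3 differed by 0.16, and SFN and PLK3 by 0.21. GADD45A lay 0.58 from PLK3, the member nearest to it, with 89 other genes closer. AEN lay 0.38 from CDKN1A, the nearest to it, with 230 other genes closer. For CDKN1A 8 other genes, for PLK3 6 and for SFN 1 lay closer than the nearest member. Thus for each of the 5 at least 1 gene outside the set followed its course more closely than any other member did. With 2327 outside genes and few other members to choose from, that is likely in advance and says little about the set.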

How the data were processed

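The authors deposited 1 table for the 12 RNA-seq libraries, made on a BGISEQ platform per the labels' protocols. The authors' read columns, per the file headers, are estimated counts that were deposited without normalization, 58.18% of them whole. The authors' expression column has no stated unit in the deposited header and behaves as FPKM. The authors' log2 ratios, p-values and q-values are deposited beside them. TopHat and DESeq 1.32.0 are named, with no role, in the submitters' processing notes. The counter, build, annotation and use of strand are not given in the sources, so overlapping and antisense genes cannot be told apart.

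The total of each library was derived by dividing counts by FPKM for 625 genes and was scaled with 39 single-transcript genes of GENCODE, placing untreated replicate 1 at 20.241 M reads (95% interval 19.991 to 20.667). Rounded counts went into edgeR 4.0.16 (R 4.3.3), with filterByExpr and these totals as library sizes. A robust quasi-likelihood model of 4 group means was fitted to all libraries, and p-values were adjusted by Benjamini-Hochberg for 3429 genes. All 5 members passed the filter. The threshold was an adjusted p under 0.05. Alternatives used DESeq2 1.42.0, limma 3.58.1, TMM and RLE scaling, other filters, a replicate block and each library left out.

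Members and lists were chosen with earlier results of these data known. The named genes are the 5 members, the listed genes found in the table and the 3 genes nearest to each member (mean log2 CPM of at least 1). A gene of the p53 target list is not reported here and is left out of its counts. Correlations of deviations from group means between libraries with the same number ran from 0.57 to 0.86 for PUE and untreated, 0.25 to 0.46 for GLY_PUE and untreated, 0.22 to 0.47 for GLY_PUE and PUE, and 0.12 to 0.45 for GLY_PUE and GLY. As each was over 0.1, these numbers were taken to pair the libraries, from the data and not from a label. For PUE and untreated all 3 libraries correlated best with their own number, and in each of the other comparisons named 2 of 3 did. A difference of the libraries numbered 3 that is shared between groups would also give such correlations. They therefore do not settle the pairing of numbers 1 and 2. For GLY and untreated the lowest was 0.08, and the numbers were not taken to pair them. Replicates 1 and 2 were close, with a chi-square per gene of 2.10 in PUE, 2.61 in untreated and 4.74 in GLY_PUE libraries, while replicate 3 differed from them by 47.8 to 71.4. In GLY the values were 68.1 to 233. All exceed sampling noise, so each library was counted.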

Additional observations from a re-analysis of the deposited data

How the results depend on the processing

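In the 3 comparisons of cells with and without GLY, the 5 genes were higher and passed under all alternatives run. In the other comparisons none of the 5 passed under any, and signs near 0 varied. Over the alternatives, log2 fold changes with GLY against untreated ran from 1.52 to 2.90 for CDKN1A, 2.03 to 3.36 for GADD45A, 1.51 to 3.20 for SFN, 1.51 to 2.97 for PLK3 and 0.91 to 2.23 for AEN, and the largest adjusted p was 0.0142, for AEN. What moved with scaling was the number of genes called. For GLY_PUE against untreated 2651 genes were called, and 1211 with TMM, 1233 with RLE and 1285 with DESeq2's own size factors. For GLY against untreated the numbers were 2890, 1153, 1185 and 1238, and for GLY_PUE against PUE 2669, 1228, 1248 and 1281. These scalings centre the listed genes on no change. Leaving out each library gave 2132 to 2995, 2406 to 2941 and 2189 to 3009 called genes in the same order of comparisons. For GLY_PUE against GLY, and for the difference between the changes with GLY, it gave 0 to 1, the 1 without GLY_PUE replicate 2.

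The replicate block changed no call of the 5 genes. With it 2926 genes were called for GLY_PUE against untreated, 3086 for GLY against untreated and 2949 for GLY_PUE against PUE. With the block and only the libraries of the groups compared, chosen after seeing the data, 1 gene was called for PUE against untreated, where 0 were called without it.

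Among genes outside the 5 that had passed, some changed sign with TMM, RLE and DESeq2's own size factors, in that order, none passing there. With GLY against untreated CHEK1 was at 0.11, 0.06 and 0.06, CDKN1C at 0.11, 0.04 and 0.03, PLK1 at 0.09, 0.02 and 0.02, CCNB2 at 0.10, 0.04 and 0.04, and SMAD3 at 0.10, 0.03 and 0.03. With GLY_PUE against untreated CHEK1 was at 0.15, 0.12 and 0.12, PLK4 at 0.19, 0.16 and 0.16, and BRCA1 at 0.14, 0.11 and 0.11, while RRM2B (0.01) and SMAD3 (0.03) changed sign with TMM alone. Of those that had not passed with GLY_PUE, TMM put EP300 at 0.65, TP53INP1 at 0.43, ATM at 0.40, RB1 at 0.22 and RBL2 at 0.16. With 3 libraries a group, differences below about the half-width of the intervals given are beyond the precision of the main model. That model does not pair libraries by number.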
